A study of Homo sapiens with 6 samples.

Results

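Transcripts of 10 germline antigen genes were followed in A375 cells, a human melanoma line, with and without stable overexpression of HMGB2. The genes were CTAG1A, CTAG1B, CTAG2, PRAME, SSX1, SSX2, PAGE5, XAGE1B, CSAG1 and CSAG3, 10 of the 58302 genes in the count tables. They were chosen by name as cancer-testis genes after values of this same comparison had been seen, so their fold changes are given as a description and without a test. All 10 were detected in all 6 libraries. CTAG2 lay far higher with HMGB2 overexpression, and PRAME differed little. CTAG1A and SSX1, at low counts, lay lower in every overexpression library. The same was so for 10.7% of all genes tested, and neither gene was called.

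The libraries came from poly(A) RNA of A375 cells and formed 2 groups of 3, labelled by genotype as empty vector and as HMGB2 overexpression. The overexpression line was made by lentiviral transduction, and the labels give no other allele or agent for either group. HMGB2 is a DNA-bending chromatin protein, and the study asked which transcripts change when it is raised. The reporting form of the study describes the 3 replicates of a group as technical, so the spread between libraries covers samples of a stable line and not independent transductions.

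Cancer-testis antigens are proteins normally made in germ cells of the testis, where the absence of classical HLA molecules hides them from T cells. In most somatic tissues their promoters are methylated and silent, and in tumours such as melanoma many of them are transcribed again. Most of the families, among them CTAG, SSX, PAGE, XAGE and CSAG, lie in recently duplicated blocks on the X chromosome, whereas PRAME is on chromosome 22. CTAG1A and CTAG1B encode the same protein, NY-ESO-1, and CTAG2 encodes the related antigen LAGE-1, and NY-ESO-1 and PRAME are both targets of T cell therapies.

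How far the CTAG copies can be told apart was read from their sequences. The coding sequences of CTAG1A and CTAG1B matched at 543 of 543 bases, and those of CTAG1B and CTAG2 at 503 of 543 (92.6%). A fragment lying wholly within the first stretch below cannot be given to one of the copies, whereas a fragment across the second one can be told to come from CTAG2 or from the CTAG1 pair. The first stretch is the opening 70 coding bases, read on the minus strand of hg38, and is identical in CTAG1B (chrX:154619149-154619218) and CTAG2 (chrX:154653446-154653515).
CTAG1B and CTAG2, shared: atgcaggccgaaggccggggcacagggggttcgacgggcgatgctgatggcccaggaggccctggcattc
The second stretch is the 70 coding bases with the most differences, CTAG1B at chrX:154618967-154619036 and CTAG2 at chrX:154653264-154653333, both on the minus strand. Capitals mark the 13 positions at which the copies differ.
CTAG1B: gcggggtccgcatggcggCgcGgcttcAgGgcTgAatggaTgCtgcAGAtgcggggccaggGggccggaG
CTAG2: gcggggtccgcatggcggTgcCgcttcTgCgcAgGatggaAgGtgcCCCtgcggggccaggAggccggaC

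Shared sequence limited the 10 genes to different degrees. It was measured as the share of the 50-base words of a gene's annotated transcripts that also occur in another gene. It was 100% for CTAG1B (with CTAG1A), 99.0% for CTAG1A (with CTAG1B), 100% for SSX2 (with SSX2B), 95.6% for CSAG3 (with CSAG2) and 72.5% for XAGE1B (with XAGE1A). CTAG1B and SSX2 therefore had no annotated 50-base word of their own, and what placed their reads in 1 copy was not tested. Their counts are no secure measure of the single copy. CTAG1A, CSAG3 and XAGE1B were counted from the part of their words that is not shared. Reads that fit more than 1 copy are missing from the counts of these 5 genes and from the sums over copies given below. CTAG2 shared 43.1% of its words with CTAG1A and CTAG1B. The shares were 12.03% for PAGE5, 11.6% for SSX1 and 7.72% for CSAG1, and PRAME shared none of its words with another gene.

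Libraries held between 45925053 and 56755212 reads assigned to genes, without a difference between groups beyond the spread (exact two-sided permutation p = 0.8, where 3 against 3 cannot give less than 0.1). Multimapped reads, which count for no gene, made up 2.58% to 3.96% of reads with the empty vector and 3.32% to 10.6% with overexpression (exact permutation p = 0.2). HMGB2 itself, checked against the labels, averaged 15517 ± 1177 normalized counts in the overexpression libraries and 7514 ± 243 in the empty vector libraries (SD, n = 3 in both). Of 12 melanoma and melanocyte markers, MITF, S100B, PAX3, MCAM and CSPG4 were present in all libraries, TYR and DCT were at or near 0, and SOX10 was at 0 in the column for either strand, while its counts by strand summed to 28863 or more per library. Of the 9 markers with an adjusted p 1 was called, CSPG4 (log2 fold change -0.63, adjusted p = 0.0447), whose groups overlapped and which edgeR did not call. Of 17 markers of other cell types 0 were called by DESeq2 or edgeR (2 at an unadjusted p under 0.05), PTPRC and INS were at 0, and the list had a summed normalized count of 4643 to 6950 with the empty vector and 6259 to 8130 with overexpression. Empty vector replicate 3 stood apart: its summed melanoma marker count was 58585, against 93389 and 91915 in empty vector replicates 1 and 2 and 49328 to 61482 with overexpression. Most of this gap was CSPG4 alone, with 42385 normalized counts against 73844 and 73004.

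**Figure D1:**
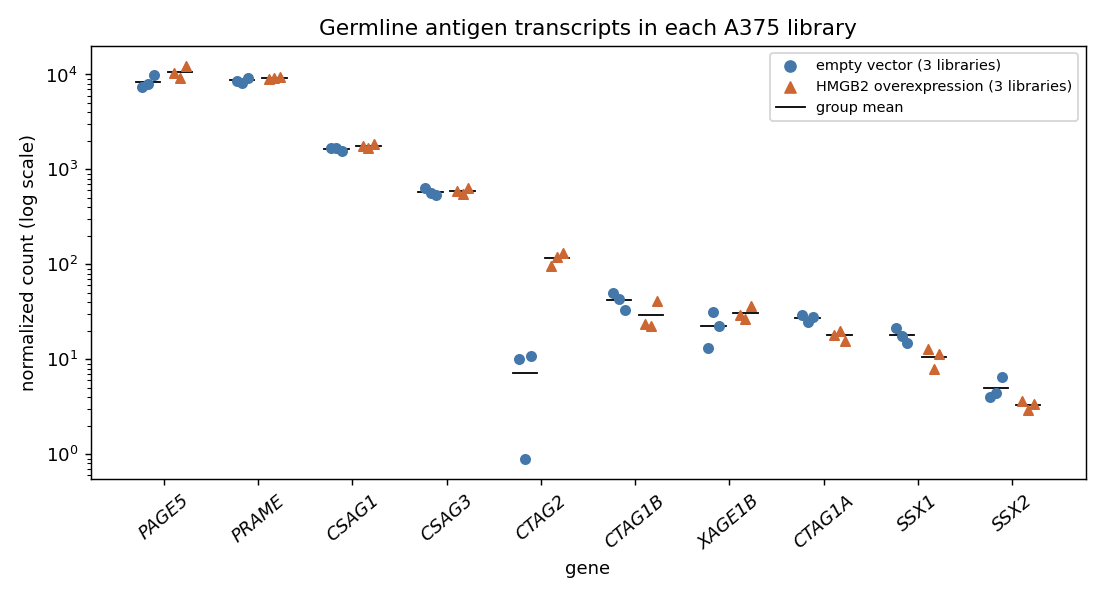
Normalized count (log scale) of the 10 germline antigen genes in each library, with circles for empty vector, triangles for HMGB2 overexpression and a bar at each group mean. The groups lie apart for CTAG2, where the overexpression libraries hold 96.3 to 133 against 0.886 to 10.7, and close together for PRAME, CSAG1 and CSAG3.

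CTAG2 (ENSG00000126890; chromosome X, 154651972 to 154653579, minus strand) showed the largest difference of the 10. The empty vector libraries held 10, 1 and 10 reads and the overexpression libraries 106, 120 and 118 reads. Divided by DESeq2 size factors, which correct for depth, the normalized counts were 10.1, 0.886 and 10.7 against 96.3, 118 and 133. All overexpression libraries lay above all empty vector libraries, and the lowest of them was 96.3 where the highest empty vector library was 10.7. The means were 7.24 ± 5.51 and 116 ± 18.4 (SD, n = 3 each), 16.0-fold apart, and the log2 fold change of the model was 4.04 (SE 0.46). The empty vector mean rested on 10 reads or fewer per library, and empty vector replicate 2 held a single read. In bulk RNA, a larger share of cells with CTAG2 and more CTAG2 RNA per cell cannot be told apart. Over 14 alternative settings the log2 fold change of CTAG2 ran from 3.47 to 4.46.

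The other CTAG copies, which encode NY-ESO-1, did not follow CTAG2. CTAG1A (ENSG00000268651; chromosome X, 154585133 to 154586816, plus strand) held 29, 28 and 26 reads with the empty vector and 20, 20 and 14 with overexpression. Its normalized counts were 29.3, 24.8 and 27.9 against 18.2, 19.7 and 15.8, so that every overexpression library lay below every empty vector library (log2 fold change -0.61, SE 0.42). CTAG1B (ENSG00000184033; chromosome X, 154617609 to 154619282, minus strand) had normalized counts of 49.5, 43.4 and 33.3 with the empty vector and 23.6, 22.7 and 41.6 with overexpression. Its groups overlapped, because overexpression replicate 3 lay above empty vector replicate 3 (log2 fold change -0.53, SE 0.39). As reads of CTAG1A and CTAG1B are hardly separable, the placed reads of the pair were also summed. Reads that fit both copies are absent from this sum, which is no total for the pair. The summed normalized counts were 78.8, 68.2 and 61.2 with the empty vector and 41.8, 42.4 and 57.4 with overexpression, a log2 ratio of the means of -0.56 without overlap between groups. Summed over the stranded columns, CTAG1A held 39, 33 and 29 reads against 27, 26 and 21, and CTAG1B 57, 52 and 35 against 30, 29 and 44. On these counts the groups of the pair overlapped, as overexpression replicate 3 lay above empty vector replicate 3.

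The balance within the CTAG family was set out as the CTAG2 share of all reads placed uniquely in a CTAG copy. With the empty vector CTAG2 took 11.4% (10 of 88 reads, 95% exact binomial interval 5.59% to 19.9%), 1.28% (1 of 78, 0.0325% to 6.94%) and 14.9% (10 of 67, 7.40% to 25.7%). With overexpression it took 69.7% (106 of 152, 61.8% to 76.9%), 73.6% (120 of 163, 66.2% to 80.2%) and 69.8% (118 of 169, 62.3% to 76.6%). CTAG1 reads therefore made up most of the family's uniquely placed reads in every empty vector library, and CTAG2 reads did in every overexpression library. These intervals cover counting error only. Reads that fit several copies are absent from all of these counts, and CTAG2 has more bases of its own than the CTAG1 copies, so the shares are of placed reads and not of molecules.

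**Figure D2:**
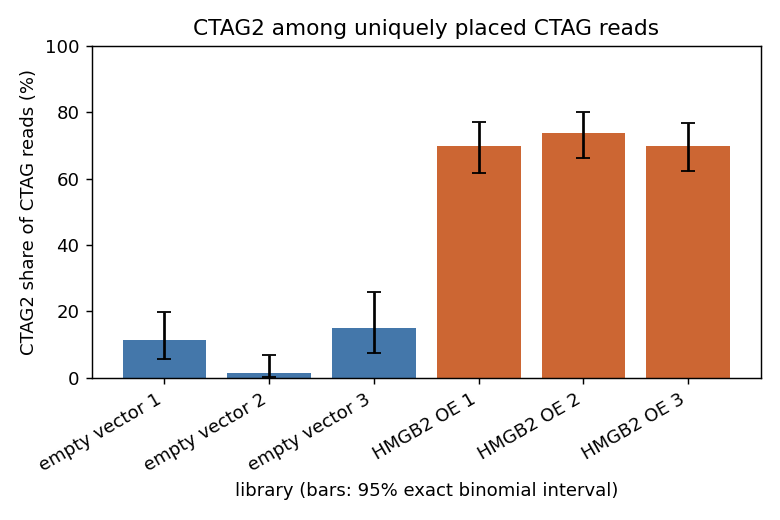
CTAG2 share of uniquely placed CTAG reads (percent) in each library, with 95% exact binomial intervals, for 3 empty vector and 3 HMGB2 overexpression (HMGB2 OE) libraries. The shares lie between 1.28% and 14.9% with the empty vector and between 69.7% and 73.6% with overexpression.

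PRAME (ENSG00000185686; chromosome 22, 22547701 to 22559361, minus strand) encodes a leucine-rich repeat protein that serves as a substrate receptor of a CUL2 ubiquitin ligase and is known as a repressor of retinoic acid receptor signalling. It was abundant in every library. Its normalized counts were 8603, 8096 and 9221 with the empty vector and 9042, 9235 and 9294 with overexpression. The groups overlapped, since empty vector replicate 3 lay among the overexpression libraries. The means of 8640 ± 563 and 9190 ± 132 (SD, n = 3) corresponded to a log2 fold change of 0.09 (SE 0.10). The alternatives gave 0.04 to 0.14 for PRAME.

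SSX1 and SSX2 encode nuclear repressor proteins, best known as the partners of SS18 in the fusion proteins of synovial sarcoma. SSX1 (ENSG00000126752; chromosome X, 48255392 to 48267444, plus strand) held 21, 20 and 14 reads with the empty vector and 14, 8 and 10 with overexpression. After correction for depth these were 21.2, 17.7 and 15.0 against 12.7, 7.88 and 11.3 normalized counts, without overlap (log2 fold change -0.76, SE 0.54). SSX2 (ENSG00000241476; chromosome X, 52696896 to 52707178, minus strand) was close to the floor, with 4, 5 and 6 reads against 4, 3 and 3. Its normalized counts of 4.04, 4.43 and 6.44 and of 3.63, 2.95 and 3.38 did not overlap either, but the log2 fold change of -0.58 had an SE of 0.95. Summed over the stranded columns, SSX2 held 4, 8 and 6 reads against 5, 5 and 4, and the groups overlapped. SSX2 received no adjusted p because of its low mean. Summed with its copy SSX2B, SSX2 had 10.9 ± 3.98 against 7.63 ± 1.10 normalized counts (SD, n = 3 each), and the groups of the sum overlapped.

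PAGE5 and XAGE1B belong to the GAGE-related families of small, acidic cancer-testis proteins. PAGE5 (ENSG00000158639; chromosome X, 55220346 to 55224108, plus strand) had the most placed reads of the 10 per length. Its normalized counts were 7398, 8027 and 9822 with the empty vector and 10356, 9170 and 12392 with overexpression. Empty vector replicate 3 lay above overexpression replicate 2, so the groups overlapped (8416 ± 1258 and 10639 ± 1630, SD, n = 3 each; log2 fold change 0.34, SE 0.15). Leaving out 1 library at a time gave PAGE5 log2 fold changes from 0.21, without overexpression replicate 3, to 0.46, without empty vector replicate 3. XAGE1B (ENSG00000204382; chromosome X, 52512077 to 52520803, minus strand) held 13, 36 and 21 reads against 32, 27 and 32. Its normalized counts were 13.1, 31.9 and 22.5 with the empty vector and 29.1, 26.6 and 36.0 with overexpression. They overlapped, with empty vector replicate 2 inside the overexpression range (log2 fold change 0.43, SE 0.45). Summed with its copy XAGE1A, XAGE1B reached 37.2 ± 16.0 against 49.4 ± 11.2 normalized counts (SD, n = 3 each).

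CSAG1 and CSAG3 are members of the chondrosarcoma-associated gene family and lie within 32.7 kb of each other, between genes of the MAGEA cluster. CSAG1 (ENSG00000198930; chromosome X, 152727484 to 152733735, minus strand) had normalized counts of 1667, 1698 and 1550 with the empty vector and 1768, 1700 and 1838 with overexpression. The groups did not overlap, but only by the narrow gap between 1698 and 1700, and the log2 fold change was 0.11 (SE 0.10). CSAG3 (ENSG00000268916; chromosome X, 152753921 to 152760222, plus strand) had 640, 568 and 534 against 597, 556 and 634 normalized counts. These groups overlapped fully (log2 fold change 0.03, SE 0.13), and 3 of 14 alternatives gave CSAG3 a fold change below 0. CSAG2 added almost nothing to CSAG3, as the pair summed to 593 ± 53.9 and 606 ± 38.7 (SD, n = 3 each).

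The CSAG1 and CSAG3 starts, which face away from each other, are preceded by nearly the same sequence. Of the 250 bases before each start, 240 (96%) matched in an alignment. They are shown because these genes had alike, small differences between groups and yet differed in placed reads. Of the CSAG3 words 95.6% also occur in CSAG2, against 7.72% of the CSAG1 words shared with any gene. CSAG3 counts lack the reads that fit both copies, so the gap need not be one of RNA level, which was not tested. The capitals mark the 10 bases of each without an equal partner, including an offset at the ends. The windows are chrX:152733722-152733971 on the minus strand for CSAG1 and chrX:152753671-152753920 on the plus strand for CSAG3 (RefSeq, GRCh38.p14).
CSAG1: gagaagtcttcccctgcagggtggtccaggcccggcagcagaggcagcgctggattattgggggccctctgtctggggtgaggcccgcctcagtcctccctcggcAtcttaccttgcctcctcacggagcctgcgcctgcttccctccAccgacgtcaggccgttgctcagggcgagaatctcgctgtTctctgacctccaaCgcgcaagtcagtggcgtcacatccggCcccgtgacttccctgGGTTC
CSAG3: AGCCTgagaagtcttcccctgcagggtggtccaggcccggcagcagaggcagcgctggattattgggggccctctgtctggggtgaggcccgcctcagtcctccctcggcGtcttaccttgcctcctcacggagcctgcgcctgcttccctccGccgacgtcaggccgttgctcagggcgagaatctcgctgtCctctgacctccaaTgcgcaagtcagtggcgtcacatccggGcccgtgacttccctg
CG dinucleotides, the sites of DNA methylation, were counted in the window from 250 bases before to 50 bases after each RefSeq start. The 7 genes with an entry were PRAME, SSX1, SSX2, PAGE5, XAGE1B, CSAG1 and CSAG3. CSAG3 held 20 and CSAG1 16, numbers reached by 41.2% and 47.5% of 35116 promoter windows, whose median was 14. SSX1 held 5 and PAGE5 10, numbers reached by 70.4% and 56.4% of windows. The 2 SSX2 windows held 8 and 10, the 3 XAGE1B windows 14 to 17, and the 3 PRAME windows 4 to 13. The count of CG dinucleotides is a description of the sequence, and methylation was not measured.

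To order the genes by placed reads, normalized counts were divided by the full exon length of each gene in kb. Reads that fit several copies are not counted, so CSAG3, CTAG1A, CTAG1B, XAGE1B and SSX2 can stand too low. The same holds to a lesser degree for CTAG2. The order is therefore one of placed reads and not of RNA levels. PAGE5 came first with 12670 per kb over all 6 libraries, followed by PRAME with 2342, CSAG1 with 1560 and CSAG3 with 543. The ranges of these 4 over the libraries did not overlap. CTAG2 followed with 61.9 per kb, CTAG1B with 35.8, CTAG1A with 22.4, XAGE1B with 20.3 and SSX1 with 11.7. Within this group each gene overlapped its neighbour in the order. SSX2 was last at 2.72 per kb, below the SSX1 range. CTAG2 changed its place with the group: at 7.29 per kb with the empty vector it lay below SSX1 (14.7), and at 117 with overexpression it lay above CTAG1B (29.4).

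A call was an adjusted p under 0.05 in the DESeq2 fit over all genes. It was made for 930 of the 18878 genes that received an adjusted p (4.93%), with 432 (2.29%) in the higher and 498 (2.64%) in the lower direction under overexpression. Of the 10 germline antigens 9 received an adjusted p and 1 was called, CTAG2, in the higher direction. Their median log2 fold change was 0.09, against 0.00 over all genes tested, and they ran from -0.76 to 4.04. Groups did not overlap for 5 of the 10, CTAG2 and CSAG1 on the higher side and CTAG1A, SSX1 and SSX2 on the lower side. Among all genes tested this was so for 21.8%, 11.1% higher and 10.7% lower. Since the genes were chosen with this comparison in view, nothing is read from these counts.

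**Figure D3:**
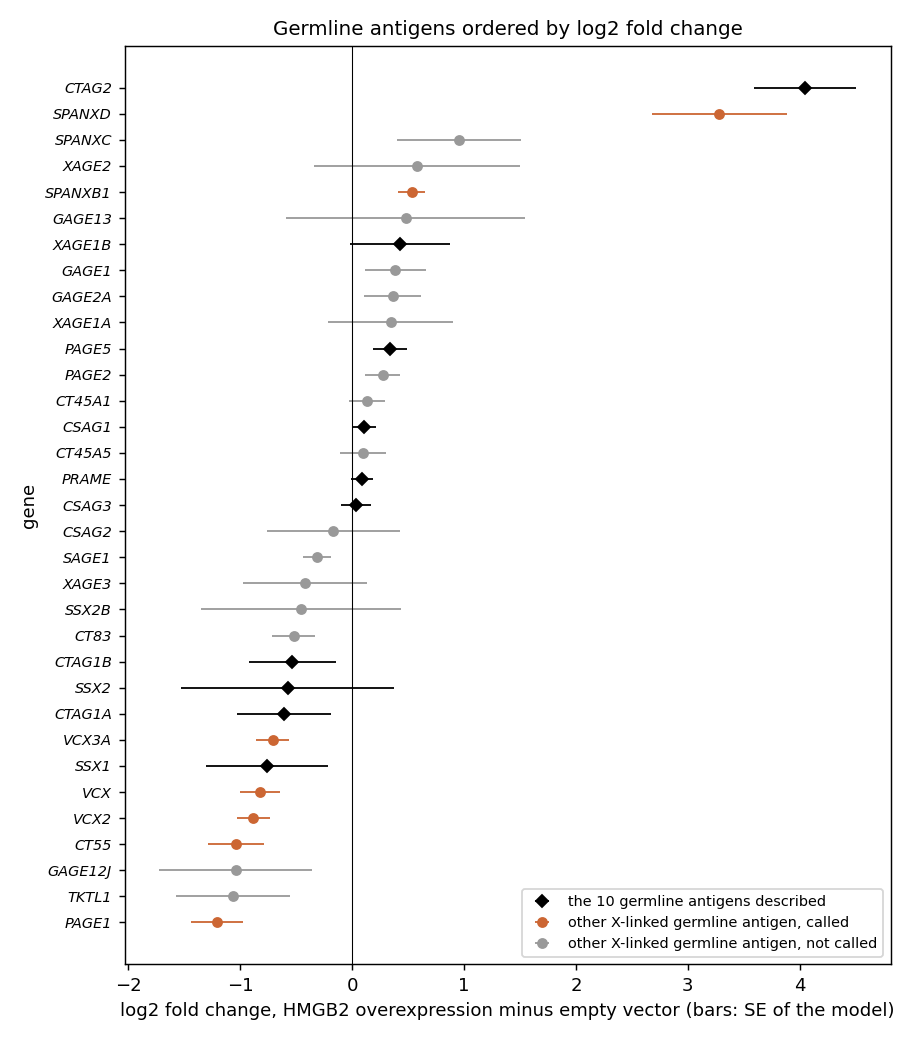
Log2 fold change of HMGB2 overexpression against empty vector for the 10 germline antigens (diamonds) and for 23 other X-linked germline antigens with an adjusted p (circles, orange where called), with the SE of the model. CTAG2 at 4.04 and SPANXD at 3.28 lie apart at the top, PRAME, CSAG1 and CSAG3 lie near 0, and PAGE1 at -1.21 is lowest.

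Other X-linked germline antigens moved in both directions. Of 49 such genes 13 had no read in any library and 23 received an adjusted p, of which 2 were called higher and 5 lower (30.4%, against 5.76% of the 694 chromosome X genes tested). The list was chosen with earlier results of these data known, and the VCX copies enter it as 3 calls, so no enrichment is read from this share. The median log2 fold change of the 23 genes was -0.17. The sperm protein gene SPANXD averaged 3.56 ± 0.759 normalized counts with the empty vector and rose to 35.0 ± 5.98 (SD, n = 3; log2 fold change 3.28, SE 0.60, DESeq2 adjusted p = 7.14e-06). Of its words 41.7% occur in other SPANX genes. SPANXB1 rose by 0.53 (SE 0.12, adjusted p = 0.000854), a call that was lost without overexpression replicate 2 (0.0541) or replicate 3 (0.0709). PAGE1, of the same family as PAGE5, fell from 188 ± 26.1 to 81.7 ± 18.0 (log2 fold change -1.21, SE 0.23, adjusted p = 1.99e-05). VCX, VCX2 and VCX3A, charged proteins of male germ cells, fell by 0.82, 0.88 and 0.71 on the log2 scale (adjusted p = 0.000395, 3.05e-07 and 0.000117), but they share 73.4% to 88.7% of their words with other genes and are not 3 separate observations. The VCX call was lost without overexpression replicate 1 (0.0593). CT55 fell by 1.03 on the log2 scale (SE 0.25, adjusted p = 0.00187), and lost the call without overexpression replicate 3 (0.0541) and in replicates 1 and 2 alone (log2 fold change -0.78, adjusted p = 0.0824). The most abundant uncalled genes of the list were PAGE2 (2773 ± 455 and 3350 ± 432 normalized counts, adjusted p = 0.434), CT45A1 (1772 ± 363 and 1942 ± 180, adjusted p = 0.829) and SAGE1 (697 ± 53.9 and 561 ± 21.7, adjusted p = 0.157). PAGE2 became a call without empty vector replicate 3 (log2 fold change 0.41, adjusted p = 0.00445) and in 3 other alternatives (adjusted p from 0.00486 to 0.0259). SAGE1 became one without empty vector replicate 3 (-0.37, adjusted p = 0.0261) and in 2 other alternatives (adjusted p = 0.0269 and 0.0474).

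Germ cell genes on the autosomes gave no call. Of 50 such genes 15 received an adjusted p, and DESeq2 and edgeR called 0 of them (3 at an unadjusted p under 0.05). Their median log2 fold change was -0.01. The most abundant was GTSF1, a piRNA pathway factor, with 8139 ± 540 and 8080 ± 651 normalized counts, in the range of PRAME. ODF2, which is also a centrosome protein of somatic cells, had 1953 ± 457 and 1941 ± 186, and LDHC, the testis lactate dehydrogenase, had 246 ± 28.6 and 197 ± 22.1 (log2 fold change -0.32, adjusted p = 0.427).

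Genes in the neighbourhood of the germline antigens were taken as all protein-coding and lncRNA genes within 500 kb. Of 117 neighbours 70 received an adjusted p, and 2 were called higher and 4 lower (8.57%, against 4.93% of all genes tested), with a median log2 fold change of -0.00069. Around the 3 CTAG copies, which span 68.4 kb, 25 of 36 neighbours received an adjusted p and none was called higher. The actin crosslinker FLNA fell from 76589 ± 16620 to 46685 ± 3709 normalized counts (log2 fold change -0.71, SE 0.17, adjusted p = 0.000896). In FLNA, empty vector replicate 3 (57432) lay nearer to the overexpression libraries than to replicates 1 and 2 (87162 and 85173). EMD, which encodes the inner nuclear membrane protein emerin, fell by 0.41 on the log2 scale (SE 0.12, adjusted p = 0.0136), and was lost in 5 of 14 alternatives, with adjusted p from 1.05e-06 to 0.199. RPL10 and DKC1, among the most abundant uncalled neighbours, had log2 fold changes of -0.00 and -0.18 (adjusted p = 0.995 and 0.329). DKC1 was called lower with a term for replicates numbered 3 (adjusted p = 0.0130) and in replicates 1 and 2 alone (adjusted p = 0.00958).

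Around CSAG1 and CSAG3, 11 of 16 neighbours received an adjusted p and 1 was called. This was MAGEA1, a further cancer-testis antigen gene, which rose from 42.9 ± 4.15 to 250 ± 24.6 normalized counts (log2 fold change 2.55, SE 0.22, adjusted p = 2.02e-27), while CSAG1 and CSAG3 in the same cluster had log2 fold changes of 0.11 and 0.03. Of 9 PAGE5 neighbours with an adjusted p, TRO, a member of the MAGE superfamily, rose from 34.0 ± 2.47 to 89.1 ± 16.1 (log2 fold change 1.39, SE 0.29, adjusted p = 0.000153). ITIH6, of the inter-alpha-trypsin inhibitor heavy chain family, fell by 0.87 on the log2 scale (SE 0.23, adjusted p = 0.00471), and was lost in 4 of 14 alternatives (adjusted p from 6.33e-06 to 0.155). Near SSX1 the RNA methyltransferase gene FTSJ1 fell from 4335 ± 87.6 to 3185 ± 93.5 (log2 fold change -0.44, SE 0.09, adjusted p = 5.85e-05), and was lost without overexpression replicate 1 (0.0524). No neighbour of PRAME (2 with an adjusted p), SSX2 (8) or XAGE1B (5) was called.

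**Figure D4:**
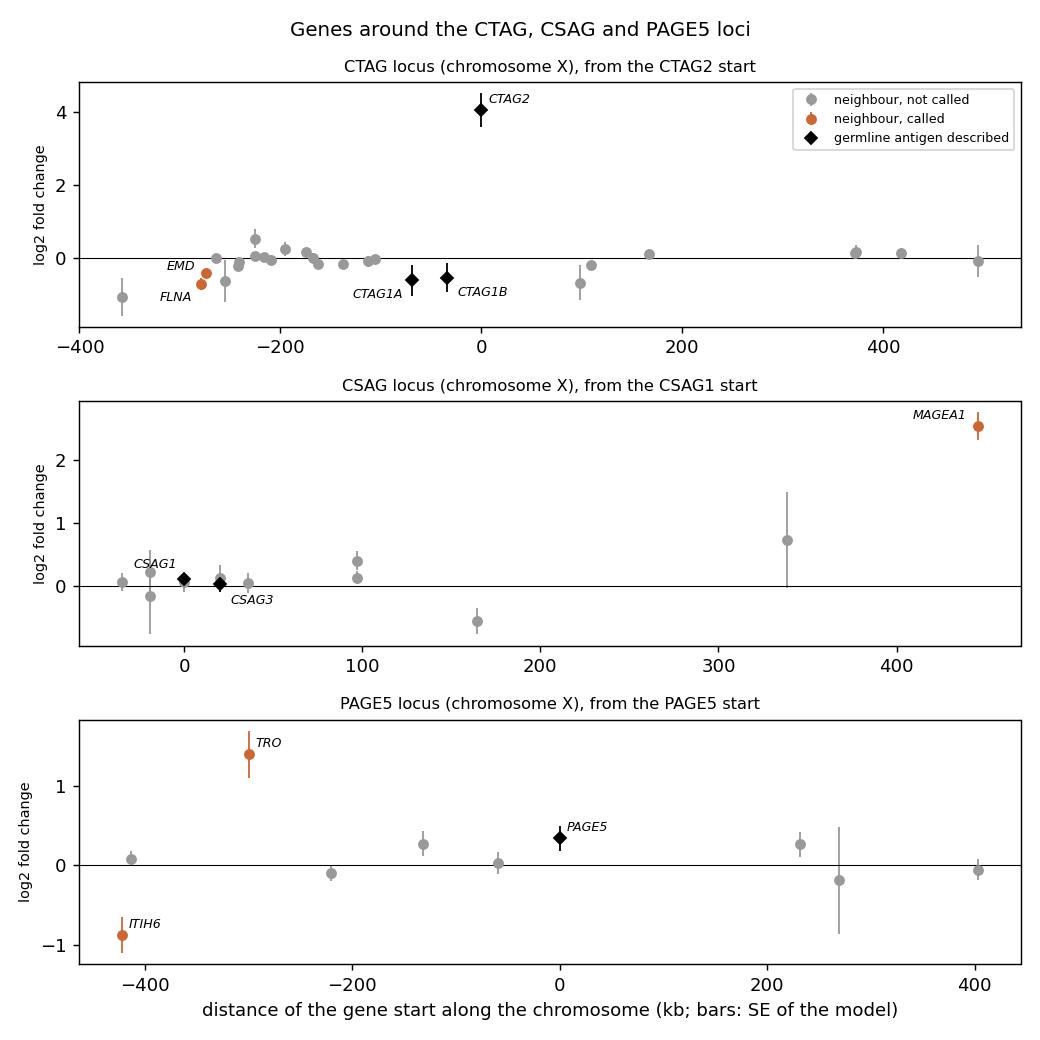
Log2 fold change (with the SE of the model) of genes around the CTAG, CSAG and PAGE5 loci, by distance in kb of each gene's start from the start of CTAG2, CSAG1 or PAGE5. CTAG2 (4.04) stands alone above its neighbours, of which FLNA and EMD are called lower, while at the CSAG locus MAGEA1 (2.55) is called and CSAG1 and CSAG3 lie near 0.

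Germline antigen promoters are kept silent by DNA methylation, repressive histone marks and the complexes that bring them there. Of 29 such silencer genes with an adjusted p, 1 was called higher and 1 lower (6.90%, against 4.93% of all genes tested), with a median log2 fold change of -0.04. HDAC1, a histone deacetylase, rose by 0.32 (SE 0.10, adjusted p = 0.0258), and EZH2, the histone methyltransferase of Polycomb, fell from 4993 ± 197 to 4095 ± 171 normalized counts (log2 fold change -0.29, SE 0.09, adjusted p = 0.0491). Both calls were fragile, as EZH2 was lost in 8 and HDAC1 in 6 of 14 alternatives, edgeR among them (adjusted p = 0.117 and 0.0916). TRIM28, KDM1A and HDAC2, the most abundant of the uncalled, had log2 fold changes of -0.10, 0.10 and 0.12 (adjusted p = 0.799, 0.704 and 0.665). Without empty vector replicate 3, 6 silencer genes were called, among them DNMT1 (log2 fold change -0.42, adjusted p = 0.00814) and DNMT3A (-0.50, adjusted p = 0.0130). In the fit of all libraries neither was called (log2 fold change -0.20 and -0.24, adjusted p = 0.797 and 0.773), and their groups overlapped. A further DNA methyltransferase gene, DNMT3B, went the other way. It lay higher in every overexpression library but was not called (log2 fold change 0.51, adjusted p = 0.114).

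Retinoic acid signalling, which PRAME is known to repress, was examined through its receptors, enzymes and targets. Of 25 genes with an adjusted p, 1 was called higher and 3 lower (16%, against 4.93% of all genes tested), with a median log2 fold change of -0.10. EdgeR called 2 genes of this list. The list was chosen with earlier results of these data known, so nothing is read from this share. The receptor gene RXRG fell from 2948 ± 182 to 1876 ± 190 normalized counts (log2 fold change -0.65, SE 0.12, adjusted p = 5.98e-06), and RDH5, a retinol dehydrogenase of the visual cycle, fell from 206 ± 42.7 to 95.7 ± 14.9 (log2 fold change -1.11, SE 0.23, adjusted p = 0.000132). The transglutaminase gene TGM2, a retinoid target, fell by 0.45 on the log2 scale (SE 0.12, adjusted p = 0.0075; lost in 5 of 14 alternatives, up to 0.192). The corepressor gene NRIP1 rose by 0.35 (SE 0.10, adjusted p = 0.016; lost in 6 of 14 alternatives, up to 0.302). ALDH1A3 and DHRS3 were among the most abundant uncalled genes, with log2 fold changes of -0.26 and 0.08 (adjusted p = 0.275 and 0.816). ALDH1A3 was called lower without empty vector replicate 3 (-0.34, adjusted p = 0.0023) and in 3 other alternatives (adjusted p from 8.36e-05 to 0.00411).

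Binding partners of PRAME and SSX were followed as a list of 10 genes, the CUL2 ligase and Polycomb subunits. The list also holds SS18, the fusion partner of SSX. EZH2, described above, was the 1 called gene (10%, against 4.93% of all genes tested), and the median log2 fold change was 0.13. The ligase subunits ELOB, ELOC and RBX1 had log2 fold changes of 0.20, 0.06 and 0.28 (adjusted p = 0.493, 0.910 and 0.533). Without empty vector replicate 3, ELOB (0.27, adjusted p = 0.0439) and RBX1 (0.50, adjusted p = 0.000688) were called, as they were in 3 other alternatives (adjusted p from 0.00623 to 0.0440 for ELOB and from 4.42e-05 to 0.00415 for RBX1).

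The genes whose pattern over the 6 libraries was most like that of CTAG2 or PRAME were sought by Pearson's r of log2(normalized count + 1), among 13328 genes whose normalized counts averaged at least 50. For CTAG2 these were ALDOC (r = 0.989), ZDHHC12 (0.988), B4GAT1 (0.988), FGD3 (0.986) and CERK (0.985), and for PRAME they were TMEM53 (r = 0.995), BBS2 (0.992), CALHM3 (0.991), RABAC1 (0.990) and CDS2 (0.989). The group means of the genes like CTAG2 were much closer together than those of CTAG2, as for ALDOC with 4413 and 5644. With 6 libraries in 2 groups, such values are a description of the best of many genes. They share libraries and depth, and no p is given.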

How the data were processed

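RNA sequencing of 3 empty vector and 3 HMGB2 overexpression libraries was analysed from gene counts. The authors selected poly(A) RNA, prepared unstranded libraries, trimmed reads with Trimmomatic and aligned them with STAR to GRCh38 (hg38), and they deposited raw read counts per gene, where a read is counted if it maps to 1 place and 1 gene. The aligner version and the annotation are not given in the sources used here. The column for either strand was used, without its 4 summary lines. Of 58302 IDs, 57532 were matched to symbols and positions in GENCODE 44.

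Counts were tested with DESeq2 1.42.0 (R 4.3.3), default parameters, Wald test on the group alone, fitted over all genes, with calls at a Benjamini-Hochberg adjusted p under 0.05. All adjusted p-values are from this fit unless edgeR is named. Fold changes are unshrunken log2 values with the SE of the model. Counts were normalized by the size factors of DESeq2. Values per library were compared with an exact permutation test. The fit was tested on simulated counts. Libraries held 45925053 to 56755212 counts, and the p-values measure only the spread between these libraries, which is technical according to the study.

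The germline antigens, the gene lists and the tests were chosen with earlier results of these data known. Named were the 10 germline antigens, HMGB2, every called gene of each list (up to 8, by size of change), the 3 uncalled genes with the highest mean, and for CTAG2 and PRAME the 5 genes most alike. Some genes under this rule are not reported here. DNMT1, DNMT3A and DNMT3B were named after their values were seen. Alternatives were edgeR 4.0.16 (quasi-likelihood, TMM), TMM scaling within DESeq2, a minimum of 10 counts in 3 libraries, turning off the independent filter, a block for the replicate number, counts summed over the stranded columns, a term for the replicates numbered 3 and leaving out each library. A fit of replicates 1 and 2 alone was added after seeing the data. Sequences and shared words came from hg38, GENCODE transcripts and RefSeq promoters.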

Additional observations from a re-analysis of the deposited data

Results flagged for a closer look

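Reads that map to several places are counted for no gene and so enter none of the comparisons. Their share of all reads was 4.89% in overexpression replicate 1 and 10.6% in overexpression replicate 3, above the highest empty vector library (3.96%). Overexpression replicate 2, with 3.32%, lay within the empty vector range of 2.58% to 3.96%. The exact permutation p between the groups was 0.2. As 3 against 3 cannot give less than 0.1, this test cannot decide whether the groups differ. Which copies these reads came from was not tested. For the genes with near-identical copies, CTAG1A, CTAG1B, SSX2, XAGE1B and CSAG3, the part of these reads in their counts was not tested either. In overexpression replicate 3, the library with the most multimapped reads, the CTAG2 share of placed CTAG reads was 69.8%, against 69.7% and 73.6% in the other overexpression libraries.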

How the results depend on the processing

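For the 10 germline antigens, chosen with this comparison in view, the values are a description and support nothing. CSAG3 lay below 0 in 3 alternatives (-0.07 to 0.11 over all). The count past the threshold was 2 of the 10 (CTAG2 and PAGE5) in place of 1 with the replicate block, with a term for replicates numbered 3, in replicates 1 and 2 alone and without empty vector replicate 3. Leaving out 1 library at a time gave 363 to 2841 called genes over all genes, 1 to 2 germline antigens, 0 to 6 silencers, 2 to 9 retinoic acid genes, 0 to 3 binding partners and 4 to 12 neighbours. The highest of each came without empty vector replicate 3. EdgeR called 470 genes in all, 0 silencers, 2 retinoic acid genes and 0 binding partners. The sum of the stranded columns and the fit without independent filter each called 1 silencer and 0 binding partners. The term for replicates numbered 3 gave 2734 genes in all, 7 retinoic acid genes, 5 binding partners and 11 neighbours, and replicates 1 and 2 alone gave 2613, 9, 4 and 12, with 6 silencers. PAGE1, VCX2, VCX3A, RXRG, RDH5, FLNA, TRO and MAGEA1 were called in all 14 alternatives, and SPANXD in the 13 in which it received an adjusted p. The cause of these changes was not tested.

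Replicate numbers were shared by the groups. Deviations of same-numbered libraries from their group means correlated at 0.0906, 0.142 and 0.349 over 16692 genes. Numbers 1 and 2 did not pair the libraries, as empty vector replicate 1 correlated best with overexpression replicate 2 (0.212). The libraries numbered 3 did go together. Empty vector replicate 3 correlated at -0.137 and -0.253 with overexpression replicates 1 and 2. Overexpression replicate 3 correlated at -0.272 and -0.217 with empty vector replicates 1 and 2. These negative values are no separate evidence. Deviations cancel within a group, so the 0.349 of the libraries numbered 3 itself pulls the others down. The main fit holds no term for this, and its cause was not tested. With the replicate number as a block DESeq2 called 1825 genes, 2 germline antigens, 7 retinoic acid genes and 3 binding partners.

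Depth limits SSX2, with 3 to 6 reads per library, and the empty vector value of CTAG2, with 1 to 10. The log2 fold changes of XAGE1B, SSX2, CSAG3 and PRAME were smaller than their SE.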
